A study of Mus musculus with 2 samples.

Results

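Polyamine homeostasis was described through 8 genes: the synthesis enzymes Odc1, Amd1, Srm and Sms, the antizymes Oaz1 and Oaz2, the antizyme inhibitor Azin1, and the catabolic enzyme Sat1. They were chosen by symbol, taken as the transcript name without its trailing number, and all 8 were found, each under a single gene identifier, among 45578 genes in the table. The data are counts of ribosome footprints, the mRNA fragments that translating ribosomes protect from nuclease, from whole brains at postnatal day 5. Both animals were heterozygous Taiwanese mice (Smn+/-; SMN2tg/0) on the FVB background: each carried a single functional copy of mouse Smn and the human SMN2 transgene. The 2 samples are biological replicates of 1 control group, so no comparison of genotypes, treatments or ages was possible here, and n is 2 throughout. Footprints came from pooled polysomal fractions, which leaves out mRNA on no ribosome or in lighter fractions, and fragments of 25 to 35 nucleotides were selected.

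Polyamines are small positively charged metabolites that bind RNA and are needed for growth and for translation. Ornithine decarboxylase makes putrescine, and the aminopropyl groups that turn it into spermidine and then spermine come from S-adenosylmethionine after its decarboxylation. The pathway is governed largely at translation. Ribosomes reach the main antizyme reading frame only by a programmed frameshift that polyamines favour, antizyme then delivers ornithine decarboxylase to the proteasome, and antizyme inhibitor, a relative of the decarboxylase without its activity, binds antizyme in its place. In the nervous system, loss of spermine synthase underlies Snyder-Robinson syndrome in people and the gyro phenotype in mice.

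Translation of Amd1, which encodes S-adenosylmethionine decarboxylase, is a textbook case of control by a short upstream open reading frame near the cap, at which ribosomes stall when polyamines are abundant. It is shown here because the 5' untranslated length and the footprint level of Amd1 are described later. In the RefSeq promoter table (GRCm38.p6), the 50 bases after the annotated start of Amd1 held 1 such frame, at chr10:40302155-40302175 on the minus strand, in the 5' untranslated region. It spanned bases 14 to 34 after the start and had 6 codons before its stop. Capitals mark the start and stop codons.
Amd1 upstream frame: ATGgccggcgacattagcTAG
An ATG followed in frame by TAA, TAG or TGA within those 50 bases, read on the sense strand alone, was present in 3856 of 32851 promoter windows in the table (11.7%). Of the 8 genes, 6 had a window (7 windows, with 2 for Sms), and Amd1 held the only such frame among them. Azin1 and Srm were not in that table. The match describes letters in a window and does not show whether ribosomes occupied the frame, because the deposited counts belong to whole transcripts.

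The libraries held 1866831 footprints in replicate 1 and 5261878 in replicate 2, so replicate 2 was deeper by a factor of 2.82 and gives the narrower counting intervals. Levels are given as CPM, the count per 1000000 footprints of the library, and comparisons between genes use density, the CPM per kilobase of coding sequence of the gene's leading coding transcript (the coding transcript with the highest mean count). Defining brain markers were present: all 6 neuronal, 5 of 5 astrocyte, 4 of 4 microglial and 4 of 4 endothelial markers had at least 10 footprints in both libraries, as did 5 of 6 oligodendrocyte markers and all 4 globin genes of red cells. None of 4 liver, muscle and pancreas markers did, and albumin was at 0 in both. In whole tissue, fewer cells of a type and less mRNA per cell cannot be told apart.

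With the footprints of all transcripts of a gene summed, the antizymes and the antizyme inhibitor were the most densely occupied of the 8 genes, and ornithine decarboxylase, the enzyme they control, was lower. The sums assume that each fragment was counted once, which was not tested. Fragments counted on several transcripts would raise Oaz1, Oaz2 and Azin1, with 7, 8 and 8 annotated transcripts, relative to Odc1, with 1. Mean density ran from 290.2 for Oaz1 through 205 for Oaz2, 200.1 for Azin1, 119 for Srm, 73.8 for Sms and 45.1 for Sat1 to 29.6 for Odc1 and 5.04 for Amd1. Of the 8 genes, 7 lay above the median of 23.9 over the 13317 coding genes whose mean count reached 10 (interquartile range 9.07 to 61.8). Together the 8 genes took 844 CPM ± 63.0 (SD, n = 2). In the order of densities, the replicates of Oaz2 and Azin1 overlapped, while no other neighbouring pair did. The order was not tested, since it rests on 2 libraries of 1 group, and part of it depended on the setting. Per kilobase of whole leading transcript, Srm came second at 80.6, behind Oaz1 at 190.1 and ahead of Azin1 at 63.9 and Oaz2 at 63.4. With the leading coding transcript counted alone, Srm came first at 140.2, ahead of Oaz1 at 115, with CPM taken over the highest transcript of each gene.

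**Figure D1:**
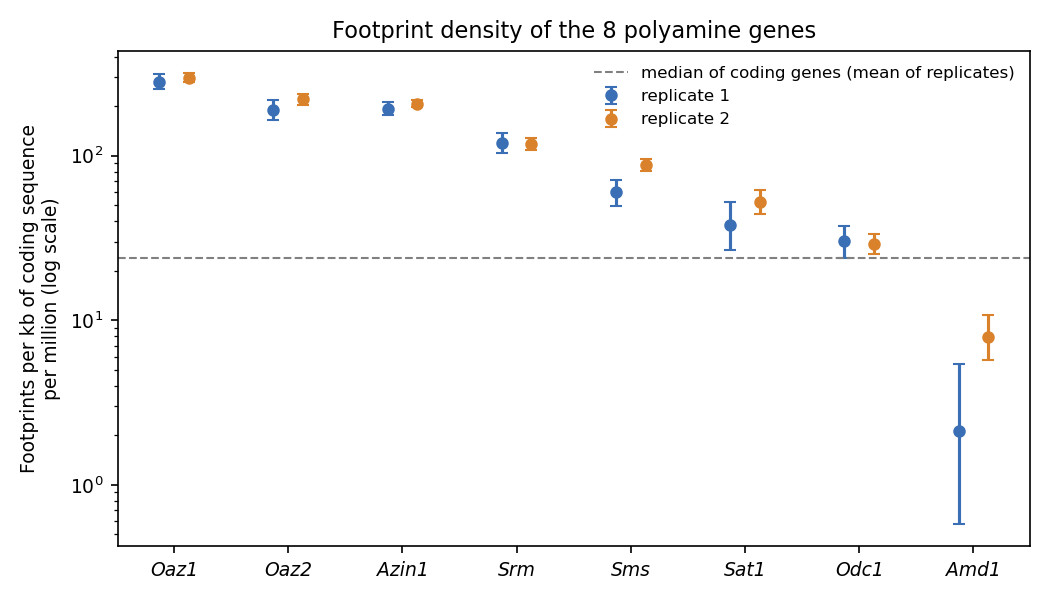
Footprint density of the 8 genes (CPM per kilobase of coding sequence, log axis), 1 point per replicate with its exact 95% counting interval; the dashed line is the median of coding genes, 23.9. Oaz1, Oaz2 and Azin1 stand highest in both replicates, Odc1 lies close to the line and Amd1 below it.

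Oaz1 (ENSMUSG00000035242) encodes antizyme 1, the broadly expressed antizyme. Replicate 1 gave 360 footprints, or 193 CPM with a Clopper-Pearson 95% interval of 173 to 214. Replicate 2 gave 1074, or 204 CPM with an interval of 192 to 217. Its density was 282 and 298, and the replicates' intervals overlapped. The mean of 290.2 ± 11.7 (SD, n = 2) lay at percentile 95.8 of the coding genes.

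Oaz2 (ENSMUSG00000040652), a second antizyme made by the same kind of frameshift, had 202 and 660 footprints. These correspond to 108 CPM (95% interval 93.8 to 124) for the first library and 125 CPM (116 to 135) for the second. Its density was 190 in replicate 1 and 220.1 in replicate 2, a mean of 205 ± 21.4 (SD, n = 2) at percentile 93.1. Within each library, Oaz1 density exceeded Oaz2 density by a factor of 1.49 in replicate 1 (95% counting interval 1.25 to 1.77) and 1.36 in replicate 2 (1.23 to 1.496). Both antizymes were thus dense in both libraries, with Oaz1 above Oaz2 by more than counting error in each.

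Azin1 (ENSMUSG00000037458), the antizyme inhibitor, had the most footprints of the 8 genes, namely 486 and 1467 in replicates 1 and 2, or 260.3 CPM (238 to 284.5) and 279 CPM (265 to 293). Its coding sequence is longer than those of the antizymes, so its density was 193 and 207, with a mean of 200.1 ± 9.69 (SD, n = 2) at percentile 92.9. Oaz1 density exceeded Azin1 density by a factor of 1.46 (1.27 to 1.67) in replicate 1 and 1.44 (1.33 to 1.56) in replicate 2. Between Oaz2 and Azin1 the ratio was 0.982 (0.829 to 1.16) and 1.06 (0.968 to 1.17), so their densities were not separable by counting error in either library.

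Odc1 (ENSMUSG00000011179), ornithine decarboxylase, the first and highly regulated enzyme of the pathway, had 78 and 212 footprints in replicates 1 and 2. These came to 41.8 CPM (33.0 to 52.2) and 40.3 CPM (35.05 to 46.1). Density was 30.1 and 29.1, a mean of 29.6 ± 0.761 (SD, n = 2) at percentile 56.2. By library totals, Odc1 was therefore steady between the libraries, and it lay close to the middle of the coding genes. Scaled by the trimmed mean of M values (TMM), the Odc1 level was 42.0 CPM ± 3.67 (SD, n = 2). Against Odc1, Oaz1 density was higher by a factor of 9.35 (7.30 to 12.1) in replicate 1 and 10.3 (8.85 to 11.9) in replicate 2. For Azin1 the factor was 6.41 (5.04 to 8.25) and 7.12 (6.16 to 8.26), and for Oaz2 6.30 (4.83 to 8.29) and 7.57 (6.475 to 8.88). With the leading coding transcript counted alone, the factors in replicates 1 and 2 were 1.896 and 2.07 for Oaz1, 1.31 and 1.47 for Azin1 and 1.43 and 1.40 for Oaz2. That setting leaves out the footprints given to a gene's other transcripts, of which Odc1 has none annotated. On whole transcript length the factors were 3.76 and 4.18 for Azin1 and 3.58 and 4.302 for Oaz2. In all, density ratios were computed for 12 pairs of the 8 genes.

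Srm (ENSMUSG00000006442), spermidine synthase, had 202 and 566 footprints and, by library totals, the smallest spread of density in proportion to its mean. Its level was 108 CPM in both replicates (93.8 to 124 and 98.9 to 117). Its density was 119 and 118, with a mean of 119 ± 0.497 (SD, n = 2) at percentile 86.6. Scaled by TMM, its level was 110 CPM ± 7.28, a wider spread in proportion than for Azin1, at 275 CPM ± 3.69 (SD, n = 2). Srm density exceeded that of Odc1 by a factor of 3.95 (3.03 to 5.20) in replicate 1 and 4.07 (3.47 to 4.79) in replicate 2, and by 2.56 and 2.29 with protein-coding transcripts only.

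Sms (ENSMUSG00000071708), spermine synthase, had 123 and 508 footprints. The first library gave 65.9 CPM (54.8 to 78.6) and the second 96.5 CPM (88.3 to 105), and these intervals do not overlap. Density was 59.8 and 87.7, a mean of 73.8 ± 19.7 (SD, n = 2) at percentile 78.9. Srm density exceeded Sms density by a factor of 1.99 (1.58 to 2.51) in replicate 1 and 1.35 (1.19 to 1.52) in replicate 2.

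Sat1 (ENSMUSG00000025283) encodes spermidine/spermine acetyltransferase, which marks polyamines for export or oxidation. It had 38 and 148 footprints, or 20.4 CPM (14.4 to 27.9) and 28.1 CPM (23.8 to 33.04). Density was 37.9 and 52.4, with a mean of 45.1 ± 10.2 (SD, n = 2) at percentile 67.1. The ratio of Odc1 to Sat1 density was 0.795 in replicate 1, with an interval of 0.533 to 1.205 that includes equality, and 0.555 in replicate 2 (0.448 to 0.689). The order of this pair turned when only footprints on protein-coding transcripts were used, to 39.2 ± 0.442 for Odc1 against 25.5 ± 2.78 for Sat1 (SD, n = 2). CPM was then taken over those footprints, so the same 78 and 212 Odc1 footprints gave a higher density than 29.6.

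Amd1 (ENSMUSG00000075232) had 4 and 42 footprints in replicates 1 and 2, the lowest counts of the 8 genes. This was 2.14 CPM (0.584 to 5.49) and 7.98 CPM (5.75 to 10.8). Density was 2.13 and 7.94, a mean of 5.04 ± 4.11 (SD, n = 2) at percentile 13.9. Amd1 was thus the only one of the 8 genes below the median of coding genes, and its spread was nearly as large as its mean.

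Several of these genes have named copies that may take their footprints, so the level of a gene and that of its family were set side by side. The copies were taken by name, and their sequences were not compared. The addition of copies was chosen after the data were examined. Amd2, a second coding copy of Amd1 with the same coding length of 1005 nucleotides, had 6 and 39 footprints, about as many as Amd1 itself. The pseudogenes Amd-ps1 to Amd-ps5 had from 1 to 44 footprints each in both libraries together, with the most on Amd-ps3. Amd1 therefore held 19.05% of the footprints of this family in replicate 1 (4 of 21, Clopper-Pearson 95% interval 5.45 to 41.9) and 25.8% in replicate 2 (42 of 163, 19.2 to 33.2). The family as a whole had a density of 11.2 in replicate 1 and 30.8 in replicate 2 on the Amd1 coding length, a mean of 21.0 ± 13.9 (SD, n = 2), which is 4.17 times that of Amd1 alone.

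For Sms, the processed pseudogene Gm14680, which RefSeq lists as Sms-ps, had 49 and 175 footprints, and its annotated length of 1101 nucleotides equals the Sms coding length. Sms held 71.5% of the pair's footprints in replicate 1 (64.1 to 78.1) and 74.4% in replicate 2 (70.9 to 77.6). With the pseudogene added, Sms density was 83.7 and 118, against 119 and 118 for Srm. Oaz1-ps had 59 and 164 footprints, which left Oaz1 with 85.9% (82.2 to 89.1) and 86.8% (84.7 to 88.6) of that pair. Oaz2 held 94.8% (90.9 to 97.4) and 93.9% (91.8 to 95.5) of its pair with Oaz2-ps. How the authors placed fragments that match several genes is not given in the sources used here, so these footprints cannot be assigned to the gene or to its copy. No copy was named in this way for Odc1, Azin1, Srm or Sat1, and copies without such a name were not searched for.

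**Figure D2:**
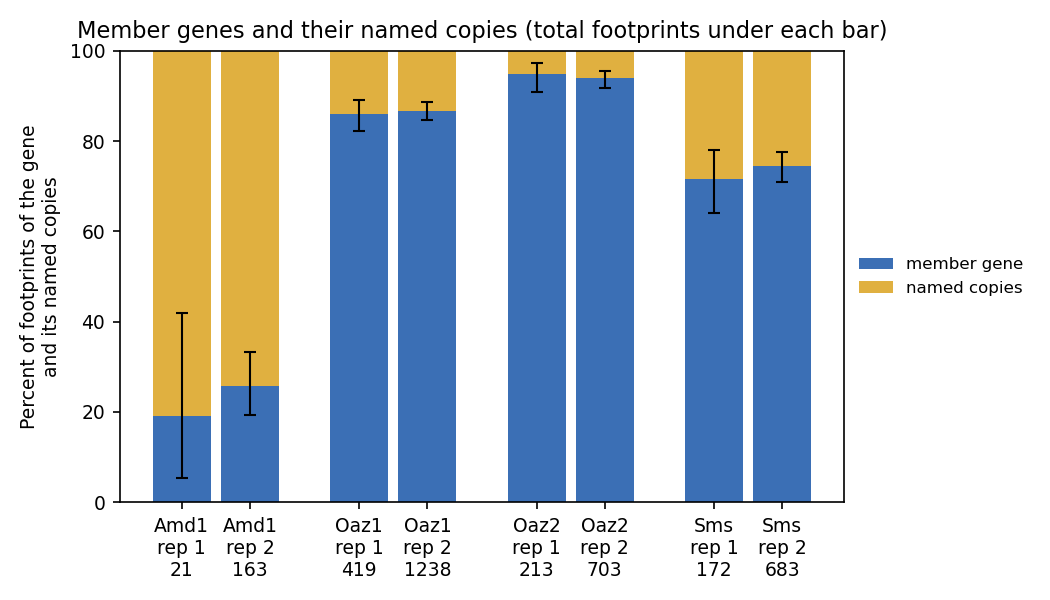
Share of footprints on Amd1, Oaz1, Oaz2 and Sms (blue) and on their named copies (yellow), per replicate, as a percent of the total printed under each bar; error bars are exact 95% counting intervals. Amd1 holds 19.05% and 25.8% of its family's footprints, and the antizymes hold most of theirs.

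The annotated coding lengths place most of these genes on the short side of the coding genes, and the 5' untranslated lengths of the 8 vary widely. Coding length of the leading transcript ran from 537 nucleotides in Sat1 and 570 in Oaz2, through 684 in Oaz1, 909 in Srm, 1005 in Amd1 and 1101 in Sms, to 1347 in Azin1 and 1386 in Odc1. All 8 were below the median of 1392 over coding genes, though Azin1 and Odc1 lay close to it, at percentiles 48.1 and 49.7. The 5' untranslated length of the leading transcript was 747 nucleotides in Azin1, at percentile 96.6, and 410 in Odc1, at percentile 84.7. It was 334 in Sms and 330 in Amd1, at percentiles 78.0 and 77.5. It was shorter in Oaz2 at 198, Sat1 at 177, Srm at 117 and Oaz1 at 74, the last at percentile 19.7. Other transcripts differ: Azin1-001, with nearly as many footprints as the leading Azin1-002, has 590, and Sat1-001 has 281.

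Leader length and density did not share an order among the 8 genes. Oaz1, with the shortest leader, had the highest density, 290.2, while Azin1, with the longest, had 200.1. Amd1, with a leader close in length to that of Sms, had the lowest density, 5.04, or 21.0 with its copies added. Across the 13317 coding genes, Spearman's rho of density with 5' untranslated length was 0.0137. With coding length it was -0.453, part of which follows from the minimum of 10 counts, since short genes with few footprints drop out, and from dividing by that length. The mean count itself had a rho of 0.0638 with coding length. These are descriptions across genes of 1 pair of libraries.

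**Figure D3:**
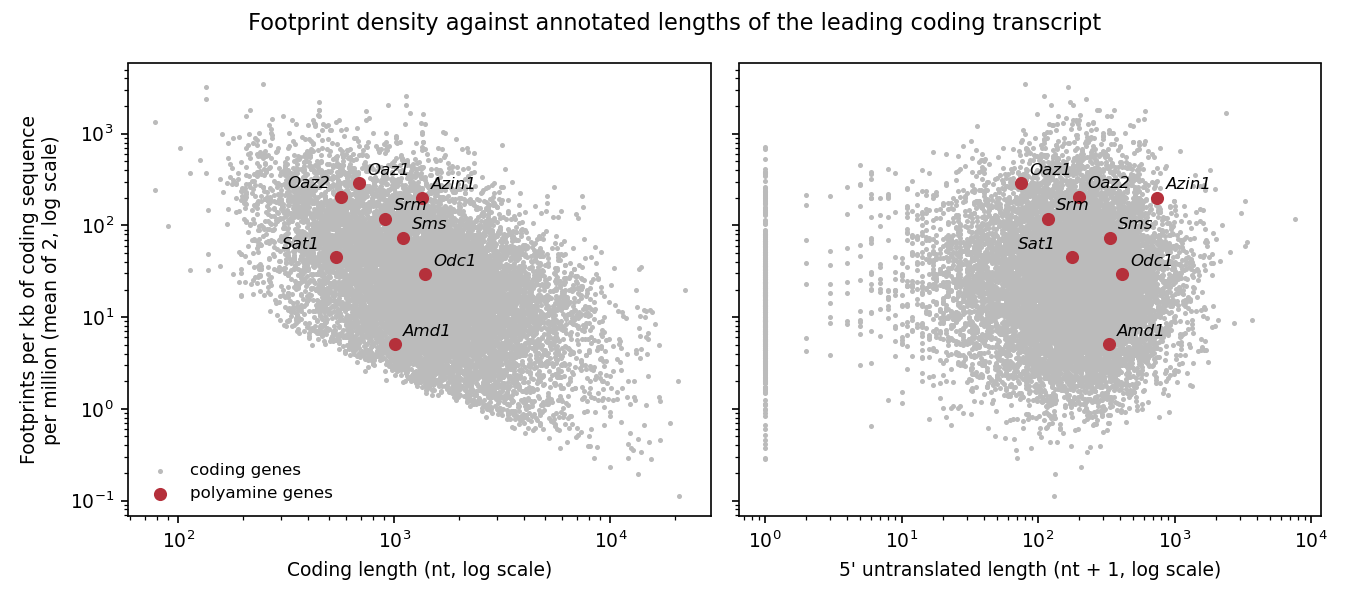
Mean footprint density (CPM per kilobase of coding sequence, log axis) against the coding length (left) and the 5' untranslated length plus 1 (right) of the leading coding transcript, both on log axes, for coding genes (grey) and the 8 polyamine genes (red). Azin1 lies high among genes with long leaders, Amd1 lies low, and the diagonal lower edge on the left comes from the minimum mean count of 10.

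The antizyme coding lengths bear on the frameshift. In the table, Oaz1-001 has a coding length of 684 nucleotides, or 228 codons with the stop, and Oaz2-001 has 570, or 190 codons. Each is a multiple of 3, and the coding and untranslated lengths add up to the transcript length. The table marks no frameshift site, and footprints before and after the shift are not separated, so the share of ribosomes that shifted was not analysed here.

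The 8 genes had 40 annotated transcripts in all, and 6 of the genes had footprints spread over several. Azin1-001 and Azin1-002, which share a coding length of 1347 nucleotides, had 101 and 99 footprints in replicate 1 and 295 and 302 in replicate 2. Oaz2-001 and Oaz2-201, with coding lengths of 570 and 567, had 46 and 33 in replicate 1 and 122 and 110 in replicate 2. Oaz1-001 and Oaz1-201, with 684 and 681, had 73 and 55 in replicate 1 and 217 and 198 in replicate 2. In these pairs, transcripts with nearly the same coding length thus had similar counts, but this was not general. Oaz1-005 and Oaz1-004, with coding lengths of 501 and 531, had 67 and 24 in replicate 1 and 200 and 74 in replicate 2. A fragment from an exon that isoforms share cannot be assigned to 1 of them, so the shares that follow describe the annotation classes to which footprints were given, not measured isoforms.

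Azin1 had 20.5% ± 0.153 of its footprints on Azin1-002, 20.4% ± 0.476 on Azin1-001 and 18.9% ± 1.19 on Azin1-005 (SD, n = 2). A further 17.3% ± 2.00 lay on Azin1-003, annotated as a target of nonsense-mediated decay, the pathway that degrades mRNA with an early stop. Azin1-006, a processed transcript with no annotated coding sequence and 622 nucleotides long, held 10.3% ± 2.32, and Azin1-008 held 6.15% ± 1.42. Per 100 nucleotides of transcript, Azin1-006 carried 4.44 CPM ± 0.788 and Azin1-002 carried 1.31 ± 0.0732. Only 1347 of the 4217 nucleotides of Azin1-002 are coding, so its value is averaged over much untranslated sequence. The 2 values therefore do not compare occupancy of coding sequence.

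Oaz1 footprints were shared almost evenly among 5 of its 7 transcripts, with 20.2% ± 0.0516 on Oaz1-001, 18.6% ± 0.00768 on Oaz1-005, 16.9% ± 2.23 on Oaz1-201 and 16.8% ± 0.590 on Oaz1-003 (SD, n = 2). The fifth, the retained-intron transcript Oaz1-002, held 20.01% ± 1.96. Oaz1-004 held 6.78% ± 0.158. A contrast between 2 transcripts of like length was noticed after their values were seen. Oaz1-006, which has 150 coding and 370 3' untranslated nucleotides, carried 2 and 9 footprints, while Oaz1-004, with 531 of its 538 nucleotides coding, carried 24 and 74. Per 100 nucleotides that is 0.267 ± 0.0869 against 2.50 ± 0.159 CPM (SD, n = 2), so the transcript made mostly of 3' untranslated sequence was the sparser one in both libraries.

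Oaz2 had 20.6% ± 3.03 of its footprints on Oaz2-001, 16.5% ± 0.233 on Oaz2-201, 16.2% ± 1.25 on Oaz2-006 and 13.3% ± 2.14 on Oaz2-002 (SD, n = 2). Its retained-intron transcript Oaz2-003 held 12.7% ± 0.462, and the processed transcripts Oaz2-004 and Oaz2-005 held 9.07% ± 3.03 and 6.30% ± 0.513. Oaz2-007 held 5.22% ± 0.315. Over the 22 protein-coding transcripts of the 8 genes whose mean count reached 10, Spearman's rho between the coding share of the transcript and footprints per nucleotide was 0.608. Over 27303 such transcripts of all genes it was 0.0804. Transcripts of 1 gene share exons and so are not independent points.

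Among the enzymes, Srm-001 held 60.6% ± 6.004 of the Srm footprints, the retained-intron transcript Srm-002 held 32.6% ± 5.56 and the processed transcript Srm-003 6.75% ± 0.447 (SD, n = 2). The share of Srm-002 was 28.7% in replicate 1 (22.6 to 35.5) and 36.6% in replicate 2 (32.6 to 40.7), so the intervals overlapped. Sms-001 held 39.8% of the Sms footprints in replicate 1 and 40.2% in replicate 2, and Sms-005, a target of nonsense-mediated decay, held 29.0% ± 2.64. The retained-intron transcripts Sms-003 and Sms-004 held 22.0% ± 1.20 and 6.09% ± 0.569. Odc1 and Amd1 have a single annotated transcript each, so all of their footprints fell on it.

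Sat1 is known for an alternative exon that introduces an early stop and for nonsense-mediated decay of the resulting mRNA. Sat1-002, the annotated decay target, had 7 footprints in replicate 1 and 27 in replicate 2, and the coding transcript Sat1-001 had 7 and 30. Their shares of the Sat1 footprints were 18.3% ± 0.126 and 19.3% ± 1.31 (SD, n = 2). Sat1-005, also coding, held 23.9% ± 7.09, and the retained-intron transcripts Sat1-003 and Sat1-004 held 19.0% ± 4.60 and 15.3% ± 0.654. In replicate 1 the counts were so few that the interval of the Sat1-002 share ran from 7.74% to 34.3%.

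Summed over the 8 genes, protein-coding transcripts carried 69.9% ± 1.46 of the footprints, retained introns 15.03% ± 0.884, decay targets 8.78% ± 0.859 and processed transcripts 6.30% ± 0.285 (SD, n = 2). Over all 13317 coding genes the same classes carried 80.2% ± 1.12, 9.92% ± 0.420, 4.13% ± 0.411 and 5.68% ± 0.292. Sms and Sat1 had the lowest protein-coding shares of the 8, 42.9% ± 0.868 and 43.3% ± 5.78.

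**Figure D4:**
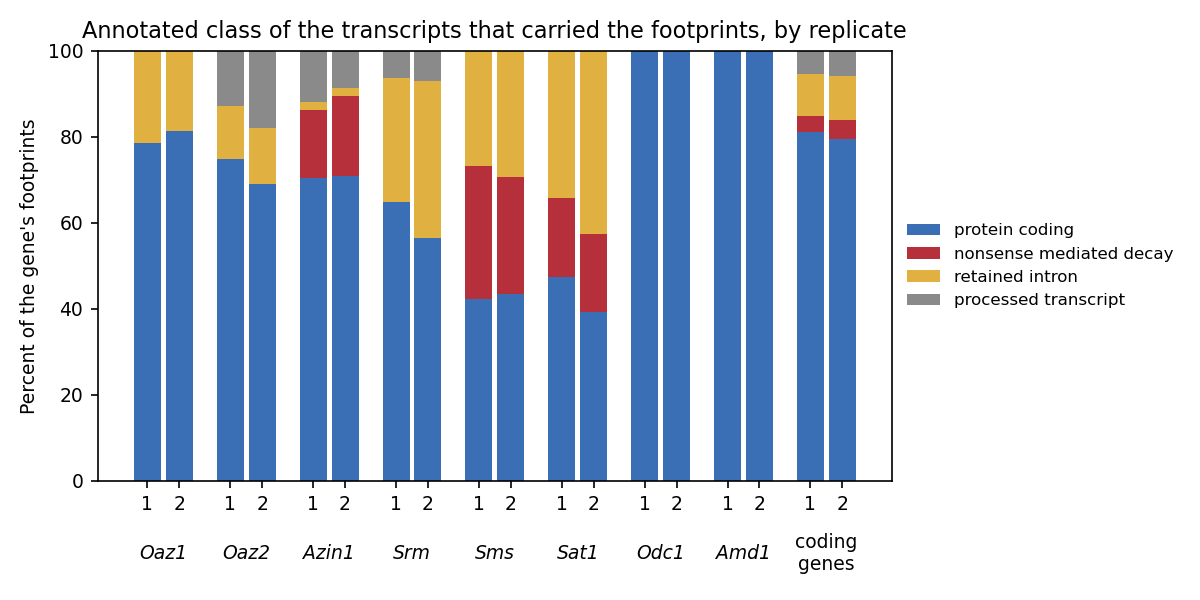
Percent of each gene's footprints on transcripts annotated as protein coding, nonsense-mediated decay targets, retained introns and processed transcripts, 1 bar per replicate, with all coding genes at the right. Decay targets appear in Azin1, Sms and Sat1 alone of the 8, and Odc1 and Amd1 have a single coding transcript.

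The replicates were then compared gene by gene, by an exact binomial test (two-sided) on the counts, scaled by TMM (trimmed mean of M values), which compares 2 libraries and not conditions. Over the 16427 genes whose mean count reached 10, 17.4% were called at an adjusted p under 0.05 (Benjamini-Hochberg); 5.95% were called as higher and 11.5% as lower in replicate 2. Of the 8 genes, 1 was called, as higher in replicate 2, and 7 were not, and 2 had an unadjusted p under 0.05, as did 27.7% of all genes tested. At 1 of 8 and 2 of 8, the counts were close to those backgrounds. The median log2 ratio of replicate 2 over replicate 1 was 0.03 for the 8 genes and 0.01 for all genes tested.

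The called gene was Sms, with a log2 ratio of 0.42 (exact binomial test, adjusted p = 0.0216). Across the settings tried, its log2 ratio stayed between 0.37 and 0.55, and its adjusted p ranged from 0.00126 to 1. Sms lost the call when only protein-coding transcripts were counted (adjusted p = 0.105) and with the highest transcript of each gene (adjusted p = 0.166). It also lost it in edgeR's exact test with a common dispersion (adjusted p = 1), which estimates the dispersion from the same pair of libraries.

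Amd1 had the largest log2 ratio of the 8, 1.57, and was not called (exact binomial test, adjusted p = 0.0539). With 4 footprints in replicate 1, Amd1 reached the minimum mean count only through replicate 2, the library in which it was higher. With library totals in place of TMM, its log2 ratio was 1.68 and the adjusted p 0.0372, and over all settings the adjusted p ranged from 0.000180 to 1. The low end came from the whole Amd family, with 21 footprints in replicate 1 and 163 in replicate 2, a log2 ratio of 1.30 and the same test's adjusted p = 0.000180. This family sum was chosen after the data were examined. Its test assumes that each fragment was counted once, which is not known for these copies. A fragment counted on several members would enter the sum more than once, which could make the family's p too small. The other members tested were higher in replicate 2 as well, with log2 ratios of 0.98 for Amd2, 0.94 for Amd-ps3 and 0.60 for Amd-ps4. None of them was called. With 6, 6 and 4 footprints in replicate 1, they reached the minimum mean count only through replicate 2, the library in which they were higher. Footprints could not be assigned to the gene or to its copy, so these ratios are not independent evidence for the Amd1 difference.

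The remaining genes had log2 ratios of 0.33 for Sat1, 0.09 for Oaz2, -0.03 for Azin1, -0.04 for Oaz1, -0.13 for Srm and -0.18 for Odc1, with adjusted p from 0.448 to 0.889 in the exact binomial test. Several of these signs depended on the setting. Oaz1 and Azin1 turned above 0 with library totals, at 0.08 and 0.10 (TMM lowers log2 ratios by 0.13 before the prior of 0.5 CPM). Both were also above 0 with protein-coding transcripts only, at 0.03 and 0.01, and with the highest transcript per gene, at 0.02 and 0.06. In the last setting Oaz2 and Sat1 turned below 0, at -0.14 and -0.19. None of these genes was called in any setting tried. Summed levels of marker lists also differed between the libraries: neuronal markers had 4947 CPM in replicate 1 and 3959 CPM in replicate 2, oligodendrocyte markers 679 and 957 CPM, and red cell markers 2474 and 1685 CPM. Within the neuronal list, Tubb3, Stmn2 and Snap25 had log2 ratios of -0.99, -0.81 and -0.55 and were called, while Map2, Dcx and Rbfox3 had -0.06, -0.03 and -0.05 and were not. Their part in the Sms and Amd1 differences was not tested.

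**Figure D5:**
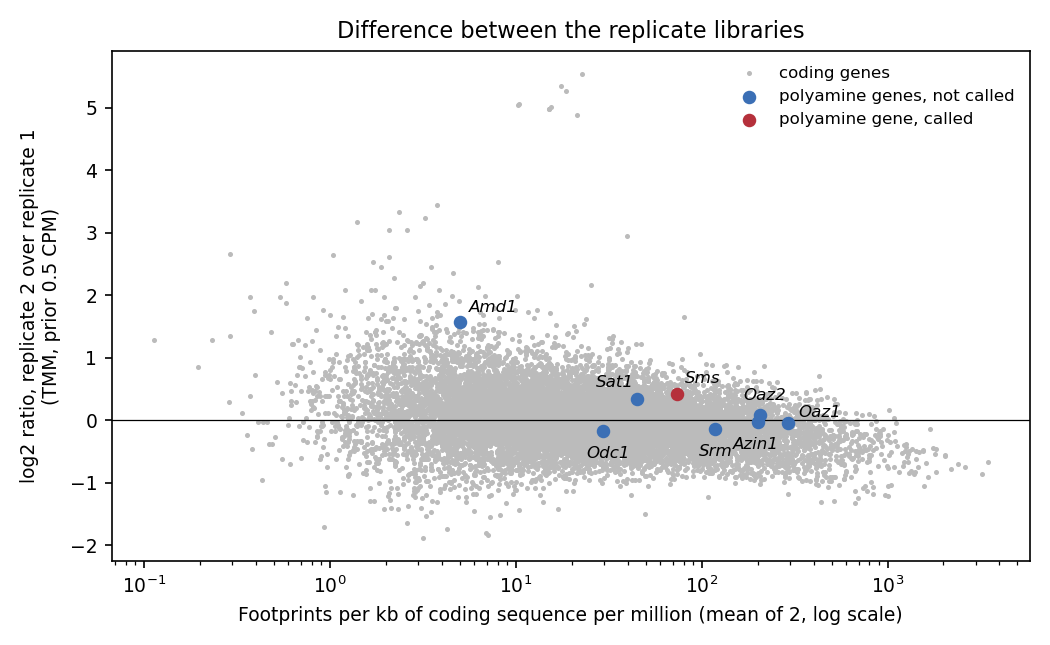
Log2 ratio of replicate 2 over replicate 1 (TMM scaling, prior of 0.5 CPM) against mean footprint density (log axis) for coding genes (grey) and the 8 polyamine genes. Sms, in red, is the gene called by the exact binomial test at 0.42; Amd1 lies higher at 1.57 and was not called, and the other genes lie within the body of the cloud.

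Beyond the 8 genes, 26 others of the pathway and its surroundings were listed, and 21 of them reached a mean count of 10. None was called as higher in replicate 2 and 1 was called as lower, against the backgrounds of 5.95% and 11.5%; 20 were not called, and 2 of the 21 had an unadjusted p under 0.05 in the exact binomial test. With so few calls the list gives levels rather than differences.

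Spermidine is the substrate for hypusine, the modified lysine that the translation factor eIF5A needs, and Eif5a was the densest gene of the list, with 889 and 2798 footprints and a density of 1084 ± 84.5 (SD, n = 2) at percentile 99.7. The density of Dhps, which encodes the first enzyme of hypusine synthesis, was 67.1 ± 2.72, and that of Dohh, which encodes the second, 80.0 ± 7.25. The brain-enriched paralog Eif5a2 had a density of 16.6 ± 2.14. Eif5a has relatives in the genome, and their part in its count was not tested.

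Among transport genes, Slc3a2, the heavy chain of amino acid transporters that has been linked to polyamine export, had the highest density, 171 in replicate 1 and 154 in replicate 2. It was the called gene of the list, lower in replicate 2 by a log2 ratio of -0.28 (exact binomial test, adjusted p = 0.00310). Atp13a2, the lysosomal polyamine exporter, had a density of 73.7 ± 0.607, and the arginine transporter Slc7a1 74.3 ± 3.27 (SD, n = 2). Atp13a3, which serves polyamine uptake, had a density of 15.5 ± 2.90.

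Of the enzymes that supply or compete for precursors, Oat, ornithine aminotransferase, was the densest at 88.1 ± 5.68 (SD, n = 2). Mat2a, which makes S-adenosylmethionine, had a density of 46.2 ± 0.283. Arg1, the liver-type arginase, had a single footprint, in replicate 1; the count of 0 in the deeper library leaves room for a level of up to 0.570 CPM. By contrast, the mitochondrial arginase Arg2 had 27 and 67 footprints and a density of 12.8 ± 1.15. Agmat had 1 footprint in each library. Azin2, the second antizyme inhibitor, had 39 and 147 footprints and a density of 17.7 ± 3.61, against 200.1 for Azin1.

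In catabolism, spermine oxidase (Smox) was densest at 25.6 ± 1.67, followed by Sat2 at 23.4 ± 5.09 and Paox, the oxidase of acetylated polyamines, at 6.15 ± 0.701 (SD, n = 2). Oaz3, the testis antizyme, had 1 footprint in each library, and nearly all antizyme footprints lay on Oaz1, Oaz2 and their named copies.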

How the data were processed

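Per the labels' protocols, polysomes of snap-frozen brains were pooled from a sucrose gradient, digested with RNase I and size-selected, and libraries were sequenced on an Illumina HiSeq2500. The authors deposited whole-number counts per transcript, with no normalization, 1 column per replicate, and annotated lengths. The submitters' processing notes name Trimmomatic 0.36, Bowtie2 2.2.6, SAMtools and build GRCm38.p4; the counting rule, annotation release and treatment of multiply matching fragments and duplicates are not given in the sources used here. Values are footprint levels: RNA-seq of the same lysates, which translational efficiency needs, was not used here.

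Counts were summed per gene, on the assumption that each fragment was counted once. Genes whose mean count reached 10 were compared between replicates by a two-sided exact binomial test (scipy 1.17.1) at the ratio of TMM effective library sizes (edgeR 4.0.16; factors 0.957 and 1.04), with Benjamini-Hochberg adjustment and a threshold of 0.05. A quasi-likelihood fit could not be made with 1 group. Log2 ratios have a prior of 0.5 CPM. Intervals and limits for a count of 0 (3 counts) cover counting error only, since PCR copies are not independent molecules. On simulated counts for this comparison (16142 genes tested), the test called 111 of 192 genes changed by a factor of 2, 86 of the 91 with a mean count of 100 or more, and 5 unchanged genes. The simulated counts held counting (Poisson) noise alone, so the 5 calls give no error rate for these libraries. Alternatives included DESeq2 1.42.0 size factors, library totals, other count minimums, transcript choices and lengths. Named transcripts held at least 5% of a gene's footprints; named pathway genes were the densest of each group, called genes, and others chosen for their role after values were seen. Members and lists were chosen with earlier results of these data known.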

Additional observations from a re-analysis of the deposited data

How the results depend on the processing

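Of the alternatives, only the addition of named copies was chosen after the data were examined. By the mean of the replicates used, Amd1 had the lowest density of the 8 genes in every setting tried. With copies added, however, its density in replicate 2 was 30.8, above 29.1 for Odc1. By the same mean, Oaz1 was highest in all but the leading coding transcript counted alone, where Srm came first. The summed level of the 8 genes, 844 CPM, was 781 CPM on protein-coding transcripts only, 526 CPM on the highest transcript per gene and 929 CPM with copies added; without replicate 1 or 2 it was 889 and 800 CPM. Their median density, 96.2, was 45.2 on whole transcript length, 68.6 on protein-coding transcripts only, 69.3 on the leading coding transcript alone and 110 with copies added, and 103 and 89.4 without replicate 1 or 2. In the settings with protein-coding transcripts only or 1 transcript per gene, CPM was taken over the footprints kept. These values are therefore not parts of the main ones: Odc1, with a single annotated transcript, rose from 41.0 to 54.3 and 80.2 CPM. The median share of the leading coding transcript, 32.4%, was 74.0% among protein-coding transcripts only, and 30.4% and 34.4% without replicate 1 or 2; the protein-coding share, 69.9%, was 68.9% and 70.9%. The number of the 8 genes called, 1, was 2 with library totals and 2 with copies added. It was 0 with protein-coding transcripts only, with the highest transcript per gene and with edgeR's exact test. Over all genes, 2861 were called, against 1444 with the highest transcript per gene and 11 with edgeR's exact test. No paired analysis was possible because the samples form 1 group. Depth limits Amd1 and Sat1 most, with 4 and 38 footprints in replicate 1.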

Other observations

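Peg10, a retrotransposon-derived imprinted gene, is also known for a programmed frameshift. It had 135 footprints in replicate 1 and 451 in replicate 2, and its density of 69.9 ± 8.38 (SD, n = 2) lay at percentile 77.9 of the coding genes, on the coding length of its leading transcript, 1131 nucleotides. Rtl1, another such imprinted gene, whose table entry is a single coding sequence of 5235 nucleotides, had 1 and 11 footprints. The log2 ratio of Peg10 between the replicates was 0.12 (exact binomial test, adjusted p = 0.675).

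The annotated length of the pseudogene Oaz1-ps, 681 nucleotides, equals the coding length of Oaz1-201, as the length of Gm14680 equals that of Sms. Footprints on Oaz1-ps made up 31.6 CPM in replicate 1 and 31.2 CPM in replicate 2.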
